A study of Mus musculus with 6 samples.

Results

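Autophagy is the process by which a cell encloses part of its cytoplasm in a double membrane, the autophagosome, and delivers it to lysosomes. The ULK1 kinase complex starts the membrane, a class III phosphatidylinositol 3-kinase complex marks it with the lipid PI3P, and ATG2 and ATG9 feed it with lipid. A pair of ubiquitin-like conjugation reactions then attaches the ATG8 proteins (the LC3 and GABARAP families) to it, and cargo receptors such as p62 tie ubiquitinated or mitochondrial cargo to these ATG8 proteins. Macrophages use the conjugation part of the machinery also in LC3-associated phagocytosis, in which ATG8 proteins are attached to the single membrane of a phagosome, and β-glucan particles are known cargo of this route.

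The transcripts of 40 autophagy genes were followed in bulk RNA sequencing of lung interstitial macrophages, macrophages that live inside the lung tissue and not in the air spaces. The 40 genes were chosen by symbol and matched to 40 of the 21965 rows of the count table. They comprised 16 genes of initiation, 16 of conjugation and 8 of a cargo receptor class, in which the kinase gene Pink1 was counted with the receptors. Of the 6 libraries, 3 came from C57Bl/6 mice given 1 mg of WGP, a β-glucan, into the peritoneum, and 3 from C57Bl/6 mice given phosphate-buffered saline (PBS) by the same route. Mice of both groups were 6 to 8 weeks old, were kept free of specific pathogens, were treated over 6 days and gave their lungs on day 7. The titles of all 6 libraries, WGP and PBS alike, also hold the word Control. No genetic change, sex or sort gate is named in the labels. Nor is it stated how many mice stand behind each library, so p-values measure only the spread between libraries, which may be technical. The series addresses training of these macrophages by β-glucan ahead of metastasis to the lung.

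The libraries held between 18254678 and 20346517 counts. Of 16 interstitial and general macrophage markers all were detected, with a summed level of 7311 to 8477 CPM (counts scaled to library size, with TMM normalisation between libraries) in WGP libraries and 8937 to 10017 CPM in PBS libraries. Of these 16, 3 rose, including Fcgr1 (log2 fold change 1.03) and Cx3cr1 (0.83), 4 fell, including Mertk (-3.01), Mrc1 (-2.08) and Ms4a7 (-1.23), and 8 lay wholly below in WGP libraries. Markers of 2 other myeloid populations moved with the treatment. The 16 alveolar macrophage markers measured summed to 1319 to 1663 CPM in WGP libraries and 5131 to 7733 CPM in PBS libraries, with 15 of 16 lower after WGP, and the 9 classical monocyte markers summed to 6191 to 7499 CPM in WGP libraries and 2031 to 2709 CPM in PBS libraries, with 9 of 9 higher. The 12 epithelial markers summed to 20.7 to 85.4 CPM in WGP libraries and 417 to 849.6 CPM in PBS libraries, and 10 of 12 were lower. No marker of these lists was at 0 in every library. Y-linked transcripts, which come from male cells, summed to 205 to 227 CPM in WGP libraries and to 112, 179 and 9.79 CPM in PBS replicates 1, 2 and 3. The share of male mice may therefore differ between the PBS libraries and between the groups. Of the other lists, 8 of 9 endothelial, 3 of 9 fibroblast, 2 of 11 T and NK cell and 1 of 6 B cell markers were lower after WGP, and 1 of 10 neutrophil markers was higher. The part of these cell type markers in the results below was not tested. The fit was repeated with the summed Y-linked level as covariate, and its adjusted p is given where it ends the call of a gene named here. In bulk libraries fewer cells of a type and less RNA per cell cannot be told apart.

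The summed level of the 40 autophagy genes was 3199.6 ± 84.5 CPM in WGP libraries and 3296 ± 109.2 CPM in PBS libraries (mean ± SD, n = 3 each, here and below). Most of the differences that passed the test fell on cargo receptors, 2 ATG8 genes and 3 genes of the conjugation enzymes and proteases. All 40 genes passed the filter on low counts. Of them, 4 rose and 7 fell at an adjusted p under 0.05 (quasi-likelihood test of edgeR, Benjamini-Hochberg adjustment across the 12305 genes tested), which is the test behind every adjusted p given here. The called share of 27.5% lay near the 31.0% of all tested genes. The 4 genes that rose were 10% of the members, where 15.2% of all tested genes rose, and the 7 that fell were 17.5%, where 15.7% of all tested genes fell. For 12 of the 40 genes (30%) the values of the WGP and PBS libraries did not overlap, against 48.1% of all tested genes. The WGP libraries lay above in 4 of these, against 23.2% of all tested genes, and below in 8, against 24.9%. With library sizes alone as the scaling 3 members rose and 7 fell, and of all tested genes 1236 rose and 2460 fell, in place of 1874 and 1935.

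The changes were small. The 40 genes had a median log2 fold change (WGP over PBS) of 0.004, where all tested genes had -0.02. The median size of the log2 fold change, its sign set aside, was 0.14 for the 40 genes and 0.31 for all tested genes. Only Optn, Gabarapl1, Sqstm1 and Atg4d reached a 1.5-fold difference, 4 of 40, where 29.4% of all tested genes did. Libraries of a group also lay close together for these genes. The coefficient of variation between replicates had a median of 6.55% in WGP libraries and 7.44% in PBS libraries over the 40 genes, against 11.9% and 11% over all tested genes in WGP and PBS libraries. It was highest for Bnip3, at 31.0% in WGP and 34.5% in PBS libraries. All tested genes were not matched to the 40 genes by level. The part of level in these comparisons of size, spread and overlap was not tested. With 3 libraries a group, the test recovered 26 of 67 genes (38.8%) simulated with a 1.5-fold change and 38 of 67 (56.7%) with a 2-fold change over genes of all levels. The simulation changed a far smaller share of the 12305 genes than was called in the data, which makes its threshold stricter. The 40 genes also varied less between replicates than all tested genes, so these recovery shares do not hold for them.

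**Figure D1:**
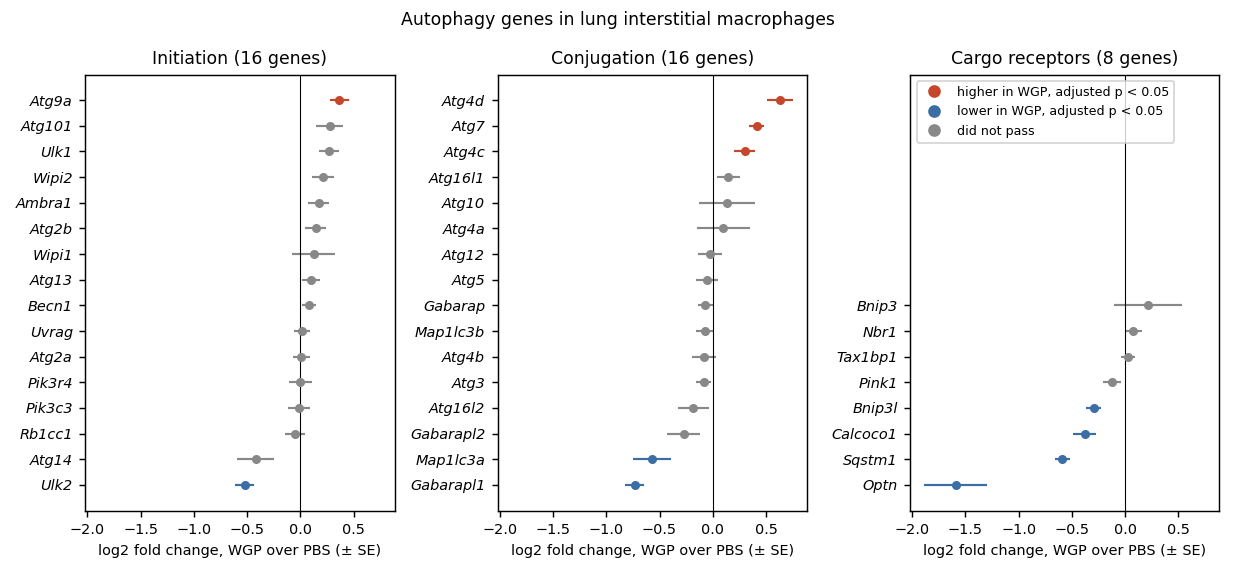
Log2 fold change of each of the 40 autophagy genes, WGP over PBS, with its SE as a horizontal bar, in 3 panels for initiation, conjugation and cargo receptor genes (n = 3 libraries a group). Red points rose, blue points fell and grey points did not pass at an adjusted p of 0.05; 4 of 8 cargo receptor genes fell and none rose.

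The calls were unevenly spread over the 3 classes, and a difference between classes was not tested. Of 16 initiation genes 1 rose and 1 fell (6.25% each), with a median log2 fold change of 0.09. Of 16 conjugation genes 3 rose (18.8%) and 2 fell (12.5%), with a median of -0.06. Of 8 cargo receptor genes 4 fell (50%) and none rose, with a median of -0.21. Of all tested genes 15.2% rose and 15.7% fell, and the conjugation shares lay near these. The summed level of the 8 cargo receptor genes was 832, 825 and 866 CPM in WGP replicates 1 to 3, against 1007, 1034 and 961 CPM in PBS replicates 1 to 3, and the groups did not overlap. Most of this difference was Sqstm1, with 248 CPM in WGP libraries and 374 CPM in PBS libraries. The summed level of the 16 conjugation genes was 1095 ± 14.9 CPM in WGP libraries and 1097 ± 25.0 CPM in PBS libraries, and that of the 16 initiation genes was 1263 ± 54.2 and 1199 ± 55.2 CPM in WGP and PBS libraries. With library sizes alone as the scaling, which moved the median over all tested genes to -0.12 (log2), the class medians were -0.01, -0.16 and -0.31 for initiation, conjugation and cargo receptors, so the order of the classes was as before and the sign of the initiation median was not.

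Among members with an entry in the promoter table, upstream sequences of the 2 that rose most and the 3 that fell most are shown. The transcription factors TFEB and TFE3 bind E-box type elements in front of autophagy and lysosome genes. The transcripts of both factors rose in the same libraries (described further on). Protein level and activity of TFEB and TFE3 were not measured, and their part in the changes of these members was not tested. Each run covers 250 to 51 bases before the RefSeq start site on GRCm38.p6, 200 bases, written 5′ to 3′ along the gene's strand. Capitals mark matches on either strand to the E-box CACGTG, to the longer palindromic CLEAR element, which contains it, or to the antioxidant response element core TGACNNNGC.
Atg4d (chr9:21265035-21265234, + strand): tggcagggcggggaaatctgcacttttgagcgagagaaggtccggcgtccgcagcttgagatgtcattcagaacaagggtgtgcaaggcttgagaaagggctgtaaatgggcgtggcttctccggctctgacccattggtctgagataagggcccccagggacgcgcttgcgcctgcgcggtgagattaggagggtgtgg
Atg7 (chr6:114670846-114671045, + strand): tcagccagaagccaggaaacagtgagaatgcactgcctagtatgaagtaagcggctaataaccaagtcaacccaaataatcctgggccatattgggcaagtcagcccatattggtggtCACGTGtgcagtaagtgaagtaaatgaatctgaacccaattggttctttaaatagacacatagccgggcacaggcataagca
Optn (chr2:5064168-5064367, - strand): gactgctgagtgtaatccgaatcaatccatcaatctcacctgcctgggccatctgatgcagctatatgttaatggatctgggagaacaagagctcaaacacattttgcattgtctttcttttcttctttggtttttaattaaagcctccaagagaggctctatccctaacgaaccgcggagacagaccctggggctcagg
Gabarapl1 (chr6:129532942-129533141, + strand): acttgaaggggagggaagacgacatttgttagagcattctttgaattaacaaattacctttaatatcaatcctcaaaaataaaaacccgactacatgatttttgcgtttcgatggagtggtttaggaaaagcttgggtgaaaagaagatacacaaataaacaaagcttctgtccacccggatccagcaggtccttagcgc
Sqstm1 (chr11:50210871-50211070, - strand): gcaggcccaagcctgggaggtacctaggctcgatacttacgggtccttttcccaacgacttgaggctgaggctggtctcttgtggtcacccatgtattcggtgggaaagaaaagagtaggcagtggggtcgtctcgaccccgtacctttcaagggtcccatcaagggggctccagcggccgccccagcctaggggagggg
The E-box was in the Atg7 window, 132 bases before the start, and in none of the other 4 windows shown. This RefSeq start of Atg7 lies inside the GENCODE gene, downstream of its first annotated base. Part of the Sqstm1 window is exon of the neighbouring gene Mgat4b, and that of Gabarapl1 is exon of the antisense gene 1700101I11Rik. Of the 33 members in the table, 3 (Atg3, Atg7 and Bnip3) had an E-box in this window (9.09%), against 4.98% of all 27025 genes with a window. The CLEAR element was in 0 of 33 members and in 0.133% of all genes, and the antioxidant response core was in 2 members (Atg13 and Tax1bp1; 6.06%) and in 8.79% of all genes. A match is a run of letters and was not tested for binding. Of these 5 members with such a match, Atg7 rose and the other 4 did not pass the test.

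In the initiation class Ulk2 fell and its family member Ulk1 did not pass. Ulk2 (ENSMUSG00000004798, chr11:61775649-61855073, minus strand of GRCm38, as all gene positions here) encodes a kinase of the same family as ULK1. It had 45.2, 45.4 and 46.6 CPM in WGP libraries, against 66.1, 61.1 and 70.1 CPM in PBS libraries. All WGP libraries were lower than all PBS libraries, and Ulk2 fell (log2 fold change -0.52 ± 0.09 SE, adjusted p = 0.0013). Ulk1 had 119.8, 109.8 and 125 CPM in WGP libraries and 93.8, 112 and 88.9 CPM in PBS libraries, and PBS replicate 2 lay among the WGP libraries. Its log2 fold change of 0.27 ± 0.10 did not pass (adjusted p = 0.059), whereas it passed without PBS replicate 2 (0.37, adjusted p = 0.013) or without WGP replicate 2 (0.32, adjusted p = 0.048). The log2 fold change of Ulk1 was smaller with the Y-linked covariate (0.15, adjusted p = 0.331) and with library sizes alone (0.17, adjusted p = 0.196). The log2 ratio of Ulk1 to Ulk2 counts within a library, which no scaling between libraries can alter, was 1.40, 1.27 and 1.43 in WGP libraries, against 0.50, 0.88 and 0.34 in PBS libraries. It was 0.79 higher in WGP libraries, and with 3 libraries a group the exact permutation p was 0.1, the smallest that this design allows (two-sided). The ratio could therefore not pass, and it restates the call of Ulk2.

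The other parts of the ULK complex did not pass. Rb1cc1, the scaffold FIP200, averaged 67.2 ± 2.74 CPM in WGP libraries and 69.6 ± 8.12 CPM in PBS libraries, and Atg13, which links the kinase to it, 65.4 ± 2.69 and 61.1 ± 4.46 CPM in WGP and PBS libraries. Atg101, the stabilising partner of ATG13, averaged 36.3 ± 2.11 CPM in WGP libraries and 30.03 ± 4.60 CPM in PBS libraries (adjusted p = 0.123), and passed without PBS replicate 2 (log2 fold change 0.40, adjusted p = 0.034). With the Y-linked covariate the log2 fold change of Atg101 was 0.18 (adjusted p = 0.435). None of the 6 genes of the lipid kinase complex passed either. The catalytic subunit gene Pik3c3, its regulatory partner Pik3r4 and the scaffold Becn1 had log2 fold changes of -0.02, -0.00 and 0.08, each with an SE of 0.07 to 0.11. Uvrag, which directs the complex to late steps, stood at 0.01 ± 0.08 and Ambra1, a regulator of the complex, at 0.17 ± 0.10. Atg14, which directs the complex to the forming autophagosome, had 21.4, 14.3 and 14.9 CPM in WGP libraries, against 22.0, 20.5 and 25.2 CPM in PBS libraries. WGP replicate 1 overlapped the PBS libraries, and Atg14 passed only without it (log2 fold change -0.63, adjusted p = 0.015, against -0.42 ± 0.17 and adjusted p = 0.093 with all libraries). Of the exons of Becn1, 43.9% overlap Cntd1 on the other strand, which had 1.21 ± 0.35 CPM in WGP libraries and 1.23 ± 0.43 CPM in PBS libraries.

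Among the genes that bind PI3P or carry lipid, all 5 log2 fold changes were above 0, from 0.01 to 0.37, although that of Atg2a was -0.09 with library sizes alone and -0.06 with the Y-linked covariate. Of these genes only Atg9a passed. Atg9a (ENSMUSG00000033124, chr1:75180860-75192196, minus strand), the lipid scramblase of the vesicles that seed the autophagosome, had 111, 118 and 119 CPM in WGP libraries, against 94.4, 96.6 and 79.1 CPM in PBS libraries. The groups did not overlap, and Atg9a rose (log2 fold change 0.37 ± 0.09, adjusted p = 0.0098). The call was lost with the summed Y-linked level as a covariate (log2 fold change 0.24, adjusted p = 0.071). Of its exons 31.8% lie in the predicted gene Gm29253 on the same strand, which has no row in the table. The PI3P-binding genes Wipi1 and Wipi2 averaged 10.3 ± 0.99 and 79.8 ± 9.29 CPM in WGP libraries, against 9.47 ± 1.70 and 69.0 ± 5.83 CPM in PBS libraries. The lipid transfer genes Atg2a and Atg2b averaged 139 ± 8.95 and 57.9 ± 1.95 CPM in WGP libraries, against 138 ± 10.4 and 52.4 ± 5.25 CPM in PBS libraries.

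**Figure D2:**
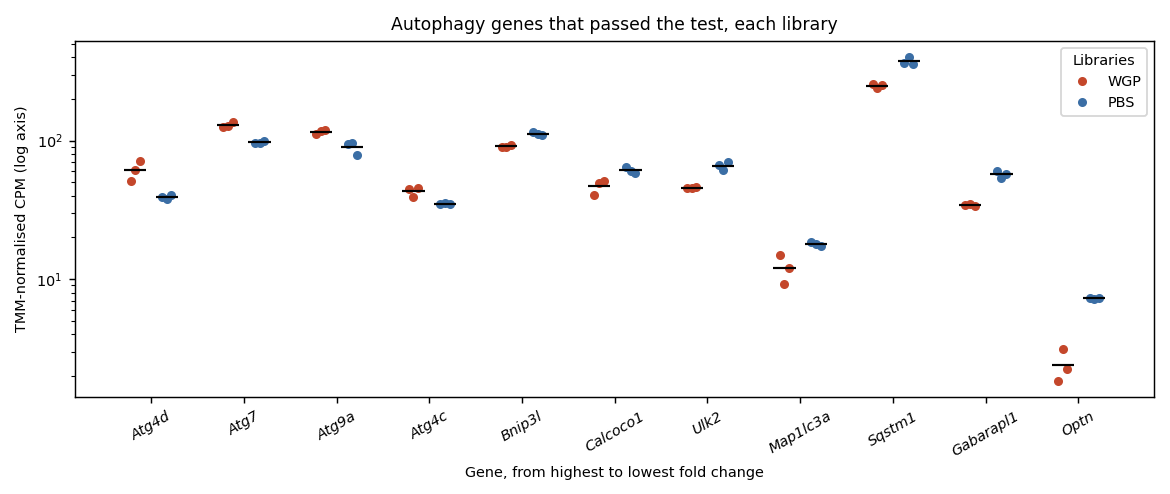
TMM-normalised CPM on a log axis of the 11 autophagy genes that passed the test, with each library as a point, WGP in red to the left of PBS in blue, and group means as black bars (n = 3 each). The 3 WGP libraries lie wholly above the PBS libraries for Atg4d, Atg7, Atg9a and Atg4c, and wholly below them for the other 7 genes.

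In the conjugation class the genes that rose encode the activating enzyme and 2 proteases. Atg7 (ENSMUSG00000030314, chr6:114643097-114860614, plus strand), the E1-like enzyme that activates both ATG12 and the ATG8 proteins, had 125, 128 and 137 CPM in WGP libraries, against 96.6, 96.8 and 99.2 CPM in PBS libraries. The lowest WGP library lay above the highest PBS library, and Atg7 rose (log2 fold change 0.41 ± 0.07, adjusted p = 0.0015). Atg4d (ENSMUSG00000002820, chr9:21265293-21277772, plus strand), a protease of the family that trims ATG8 proteins and removes them from membranes, had 50.7, 61.1 and 70.9 CPM in WGP libraries, against 39.4, 37.7 and 40.8 CPM in PBS libraries. The groups did not overlap, although the WGP libraries were spread more widely than the PBS libraries. It rose with a log2 fold change of 0.63 ± 0.12 (adjusted p = 0.0027). Of the Atg4d exons 19.3% overlap Kri1 on the other strand, which rose too (72.4 ± 4.96 CPM in WGP and 56.9 ± 4.43 CPM in PBS libraries, log2 fold change 0.35 ± 0.09, adjusted p = 0.016). Whether counting used the strand is not stated, so reads of the overlap may belong to either gene.

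Atg4c (ENSMUSG00000028550, chr4:99193934-99259787, plus strand), a second protease of the same family, had 44.5, 39.2 and 45.3 CPM in WGP libraries, against 34.7, 35.3 and 34.6 CPM in PBS libraries, without overlap. It rose (log2 fold change 0.30 ± 0.10, adjusted p = 0.037), but the call was lost without any single library other than WGP replicate 2 (adjusted p between 0.080 and 0.122) and under 4 other alternatives (0.052 to 0.149; 0.128 with the Y-linked covariate). Atg4b, the family member with the broadest activity on ATG8 proteins, averaged 43.9 ± 4.82 CPM in WGP libraries and 46.3 ± 4.78 CPM in PBS libraries, and Atg4a 8.21 ± 1.48 and 7.66 ± 1.74 CPM in WGP and PBS libraries. Neither passed. The log2 ratio of Atg4d to Atg4b counts was 0.47 ± 0.37 in WGP libraries and -0.23 ± 0.09 in PBS libraries, and that of Atg4c to Atg4b was -0.03 ± 0.12 in WGP libraries and -0.40 ± 0.17 in PBS libraries. The groups did not overlap in either ratio (exact permutation p = 0.1 each, the smallest possible). Neither ratio could therefore pass, and both restate the calls of Atg4d and Atg4c.

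Besides Atg4a and Atg4b, the remaining 6 genes of the conjugation enzymes did not pass. Atg3, the E2-like enzyme of the ATG8 branch, averaged 88.2 ± 1.24 CPM in WGP libraries and 93.7 ± 3.74 CPM in PBS libraries, with the WGP libraries all lower than the PBS libraries (log2 fold change -0.09 ± 0.07, adjusted p = 0.39). The E2-like enzyme gene of the ATG12 branch, Atg10, averaged 5.82 ± 0.98 CPM in WGP libraries and 5.32 ± 0.87 CPM in PBS libraries. Atg5, the acceptor of ATG12, averaged 39.3 ± 2.30 CPM in WGP libraries and 40.7 ± 3.88 CPM in PBS libraries, and Atg12 itself 41.4 ± 3.19 and 42.2 ± 5.05 CPM in WGP and PBS libraries. Atg16l1, which places the ATG12-ATG5 conjugate on the membrane, averaged 52.1 ± 1.84 CPM in WGP libraries and 47.1 ± 6.47 CPM in PBS libraries. Its paralogue Atg16l2 had 16.9 ± 1.40 CPM in WGP libraries and 19.2 ± 2.05 CPM in PBS libraries.

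The 5 ATG8 genes all had log2 fold changes below 0, from -0.73 to -0.07, and 2 of them fell. Gabarapl1 (ENSMUSG00000030161, chr6:129533160-129542346, plus strand) had 34.4, 35.1 and 33.7 CPM in WGP libraries, against 60.3, 54.0 and 57.1 CPM in PBS libraries. The 3 values of each group lay close together and far from the other group. It fell to 0.602 times its PBS level (log2 fold change -0.73 ± 0.09, adjusted p = 0.00023). Of its exons 28.3% overlap the antisense gene 1700101I11Rik, which has no row in the table. Map1lc3a (ENSMUSG00000027602, chr2:155276297-155278073, plus strand), which encodes LC3A, had 14.9, 9.29 and 12.1 CPM in WGP libraries, against 18.5, 17.9 and 17.5 CPM in PBS libraries. The groups did not overlap, and the gene fell (log2 fold change -0.57 ± 0.18, adjusted p = 0.035), but it did not pass without PBS replicate 1, 2 or 3 or without WGP replicate 2 or 3 (adjusted p between 0.067 and 0.110) or with the Y-linked covariate (0.089).

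The other 3 ATG8 genes did not pass. Gabarap had 372, 388 and 373 CPM in WGP libraries, against 385, 422 and 383 CPM in PBS libraries, and the groups overlapped (log2 fold change -0.07 ± 0.07, adjusted p = 0.48). Map1lc3b, which encodes LC3B, the ATG8 protein most used as a marker of autophagosomes, had 120.1, 123 and 130.3 CPM in WGP libraries, against 131, 141 and 121 CPM in PBS libraries (log2 fold change -0.08 ± 0.08, adjusted p = 0.50). Gabarapl2, also known as GATE-16, had 15.2, 19.5 and 15.8 CPM in WGP libraries, against 17.6, 22.0 and 21.5 CPM in PBS libraries (log2 fold change -0.27 ± 0.16, adjusted p = 0.21). Per kilobase of exon, Gabarap was the highest of all 40 genes in both groups, at 205 ± 4.89 CPM per kb in WGP libraries and 215 ± 12.1 CPM per kb in PBS libraries. On this scale Gabarapl1 had 17.1 CPM per kb in WGP libraries and 28.4 CPM per kb in PBS libraries, and Map1lc3b had 16.5 and 17.5 CPM per kb in WGP and PBS libraries. Per kilobase of the principal transcript, which is much shorter than all exons together for Map1lc3b, Map1lc3b had 49.1 CPM per kb in WGP libraries and 51.8 CPM per kb in PBS libraries and lay above Gabarapl1 in both groups (18.9 and 31.4 CPM per kb in WGP and PBS libraries). The order of these 2 genes therefore depends on the length used.

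**Figure D3:**
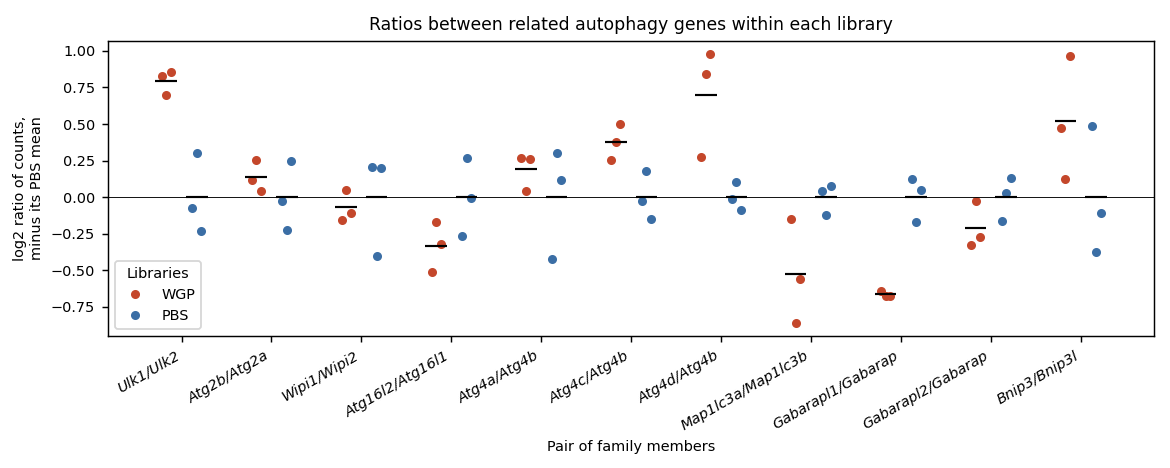
Log2 ratio of the counts of 11 pairs of related autophagy genes within each library, minus its mean over the PBS libraries; each point is a library, WGP in red to the left of PBS in blue, and black bars are group means (n = 3 each). WGP libraries lie wholly above PBS libraries for Ulk1/Ulk2, Atg4c/Atg4b and Atg4d/Atg4b and wholly below them for Map1lc3a/Map1lc3b and Gabarapl1/Gabarap.

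Ratios of counts within a library do not depend on scaling between libraries. Of 11 pairs of family members compared, 5 had WGP libraries that did not overlap the PBS libraries and 6 overlapped. The log2 ratio of Gabarapl1 to Gabarap was -3.44, -3.47 and -3.47 in WGP libraries, against -2.67, -2.97 and -2.75 in PBS libraries, a difference of -0.66. The log2 ratio of Map1lc3a to Map1lc3b was -3.39 ± 0.36 in WGP libraries and -2.87 ± 0.11 in PBS libraries, a difference of -0.52. For the 5 pairs without overlap the exact permutation p was 0.1 (two-sided), and the p-values adjusted over the 11 pairs were not below 0.22, so none could pass. The pairs were formed with these genes' levels known, and a pair without overlap restates the calls above.

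Cargo receptor genes were lower or did not pass. Sqstm1 (ENSMUSG00000015837, chr11:50199366-50210827, minus strand), which encodes p62, the receptor that joins ubiquitinated cargo to ATG8 proteins and is itself degraded by autophagy, had 256, 239.7 and 250.02 CPM in WGP libraries, against 363, 402 and 356 CPM in PBS libraries. The groups were far apart, and Sqstm1 fell to 0.665 times its PBS level (log2 fold change -0.59 ± 0.07, adjusted p = 0.00023). Per kilobase of exon it was second to Gabarap among the 40 genes, at 74.0 CPM per kb in WGP libraries and 111 CPM per kb in PBS libraries. The alveolar macrophage markers summed to 1319, 1663 and 1479 CPM in WGP replicates 1, 2 and 3, and to 6472, 7733 and 5131 CPM in PBS replicates 1, 2 and 3. The library with the most Sqstm1 had the lowest of these sums among WGP libraries and the highest among PBS libraries. With 3 libraries a group, this order cannot tell whether the 2 levels go together. The part of alveolar macrophage RNA in the Sqstm1 level was not tested. Of the Sqstm1 exons 17.3% overlap Mrnip on the other strand, which had 0.58 ± 0.04 CPM in WGP libraries and 1.31 ± 0.43 CPM in PBS libraries.

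Optn, the receptor optineurin, which binds ubiquitin on bacteria and damaged mitochondria, had the lowest fold change of the 40 genes (ENSMUSG00000026672, chr2:5020642-5064051, minus strand). Its levels were 1.85, 3.12 and 2.24 CPM in WGP libraries, against 7.29, 7.16 and 7.36 CPM in PBS libraries, which rest on 33, 59 and 41 reads in WGP and 150, 138 and 155 reads in PBS libraries. The PBS values were almost equal and the WGP values varied more, and Optn fell to 0.332 times its PBS level (log2 fold change -1.59 ± 0.29, adjusted p = 0.0023). Calcoco1 (ENSMUSG00000023055, chr15:102706777-102722178, minus strand), a receptor for autophagy of the endoplasmic reticulum and Golgi, had 40.3, 49.1 and 51.2 CPM in WGP libraries, against 64.8, 59.9 and 58.4 CPM in PBS libraries. It fell (log2 fold change -0.38 ± 0.11, adjusted p = 0.019), but did not pass without WGP replicate 1 (-0.28, adjusted p = 0.060) or PBS replicate 1 (-0.34, adjusted p = 0.080). The ubiquitin-binding receptors Nbr1 and Tax1bp1 did not pass. Nbr1 averaged 139 ± 9.43 CPM in WGP libraries and 132 ± 7.95 CPM in PBS libraries, and Tax1bp1 236 ± 3.49 and 232 ± 11.3 CPM in WGP and PBS libraries (log2 fold changes 0.08 ± 0.08 and 0.02 ± 0.07).

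Of the 3 mitophagy genes 1 fell. Bnip3l (ENSMUSG00000022051, chr14:66985239-67008877, minus strand), also called Nix, the mitochondrial receptor used when red blood cells shed their mitochondria, had 89.9, 90.5 and 92.5 CPM in WGP libraries, against 115, 111 and 109 CPM in PBS libraries, with no overlap (log2 fold change -0.30 ± 0.07, adjusted p = 0.0078). A transcribed processed pseudogene of Bnip3l is annotated, so some of its reads may be shared. Bnip3, its hypoxia-induced relative, had 6.29, 4.96 and 9.08 CPM in WGP libraries, against 8.11, 4.31 and 5.08 CPM in PBS libraries, and the groups overlapped (log2 fold change 0.21 ± 0.32, adjusted p = 0.65). Pink1, the kinase that marks damaged mitochondria, averaged 71.1 ± 3.995 CPM in WGP libraries and 77.3 ± 4.92 CPM in PBS libraries and did not pass (adjusted p = 0.31).

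Of 16 further receptors of selective autophagy tested, 5 fell (31.2%, against 15.7% of all tested genes), 1 rose (6.25%, against 15.2%) and 10 did not pass, with a median log2 fold change of -0.09. This list and the lists below were chosen with earlier results of these data known, so their shares are descriptions and no test. Ncoa4, which carries ferritin to the autophagosome, had 27.9, 30.6 and 31.7 CPM in WGP libraries, against 56.2, 62.1 and 49.2 CPM in PBS libraries (log2 fold change -0.89 ± 0.11, adjusted p = 0.00024). The endoplasmic reticulum receptor genes Rtn3 (log2 fold change -0.45 ± 0.08, adjusted p = 0.0018) and Tex264 (-0.63 ± 0.13, adjusted p = 0.0037) fell, and so did Stbd1, which binds glycogen, with 1.35 ± 0.37 CPM in WGP libraries and 5.29 ± 0.31 CPM in PBS libraries (-1.96 ± 0.36, adjusted p = 0.0022). Retreg2 fell too, but did not pass without WGP replicate 3 or PBS replicate 2 (adjusted p = 0.069 and 0.055). Retreg3, the gene that rose (0.21 ± 0.07, adjusted p = 0.040), did not pass when any 1 of the 6 libraries was left out (adjusted p between 0.063 and 0.145) or with the Y-linked covariate (0.110).

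Among transcription regulators of autophagy, Tfeb and Tfe3 rose and their relative Tfec fell. Of 9 regulators 3 rose (33.3%, against 15.2% of all tested genes) and 2 fell (22.2%, against 15.7%). These counts were the same when any 1 library was left out, but with library sizes alone 3 rose and 4 fell. Tfeb had 119.8, 120.5 and 129 CPM in WGP libraries, against 80.9, 77.9 and 103 CPM in PBS libraries, and rose without overlap (log2 fold change 0.50 ± 0.11, adjusted p = 0.0051). Tfe3, its close relative, had 166, 153 and 158 CPM in WGP libraries, against 114, 113 and 115 CPM in PBS libraries (0.48 ± 0.07, adjusted p = 0.00050). Tfec, the family member restricted to macrophages and related cells, had 10.0, 11.2 and 7.66 CPM in WGP libraries, against 50.6, 52.1 and 33.6 CPM in PBS libraries, and fell (-2.24 ± 0.20, adjusted p = 7.0e-05). Foxo3 rose (0.34 ± 0.08, adjusted p = 0.0075), and the stress factor gene Ddit3 fell (-0.73 ± 0.17, adjusted p = 0.0081).

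Upstream of the machinery, 34 genes of the nutrient-sensing kinases mTORC1 and AMPK and their regulators were tested. Of these, 5 rose (14.7%, against 15.2% of all tested genes) and 2 fell (5.88%, against 15.7%). The share that rose lay near that of all tested genes. The other 27 did not pass, and the median log2 fold change was 0.01. Mtor, which holds the ULK complex inactive, averaged 61.2 ± 4.53 CPM in WGP libraries and 55.4 ± 2.90 CPM in PBS libraries and did not pass (adjusted p = 0.26). Among those that rose were Lamtor4 (log2 fold change 0.86 ± 0.09, adjusted p = 0.00012) and Lamtor1 (0.45 ± 0.08, adjusted p = 0.0015), parts of the Ragulator anchor of mTORC1 on lysosomes, Prkag2, a regulatory subunit of AMPK (0.67 ± 0.09, adjusted p = 0.00031), and Camkk2, a kinase that activates AMPK (0.50 ± 0.08, adjusted p = 0.00087). Depdc5, a part of the GATOR1 brake on mTORC1, also rose, but did not pass without PBS replicate 1, PBS replicate 2 or any WGP replicate (adjusted p between 0.078 and 0.150). The Rag GTPase genes Rragc and Rragd fell, and without PBS replicate 1 or PBS replicate 3 Rragd did not pass (adjusted p = 0.123 and 0.052), nor with the Y-linked covariate (0.0647). With library sizes alone 4 genes of this list rose and 4 fell.

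**Figure D4:**
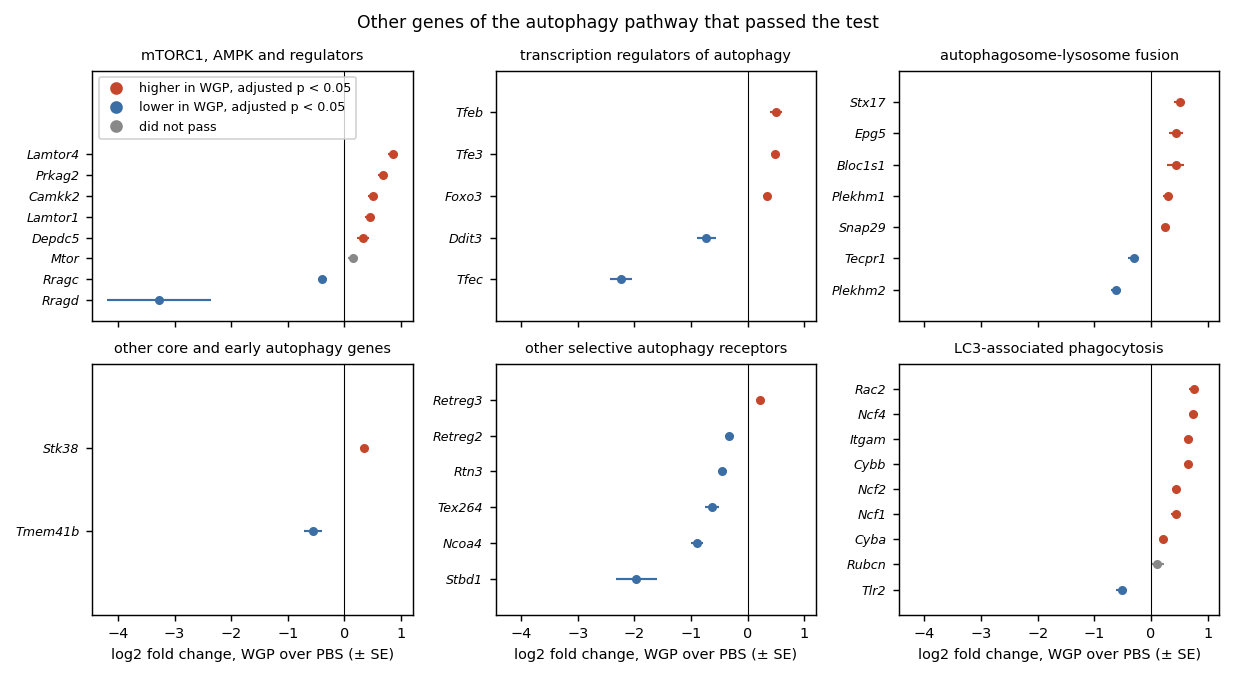
Log2 fold change, WGP over PBS, with SE bars, of the genes that passed the test in 6 lists of the wider autophagy pathway, together with Mtor and Rubcn, which did not pass (n = 3 libraries a group). In the LC3-associated phagocytosis list 7 genes lie above 0 in red and Tlr2 below it in blue, and among other selective autophagy receptors 5 of the 6 points lie below 0.

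Of 17 genes of fusion with lysosomes 5 rose (29.4%, against 15.2% of all tested genes) and 2 fell (11.8%, against 15.7%). With library sizes alone 1 rose and 4 fell, so the balance depends on the scaling. Stx17, the SNARE of the finished autophagosome, had 47.0, 41.9 and 46.7 CPM in WGP libraries, against 33.2, 31.2 and 30.8 CPM in PBS libraries (log2 fold change 0.51 ± 0.10, adjusted p = 0.0029). Plekhm2, which couples lysosomes to kinesin, fell (-0.61 ± 0.09, adjusted p = 0.00054). Plekhm1 and Epg5, which tether autophagosomes to late endosomes, rose by 0.29 ± 0.08 and 0.44 ± 0.13 (adjusted p = 0.019 and 0.021), as did Snap29 and Bloc1s1, and Tecpr1 fell. Snap29 and Tecpr1 did not pass with the Y-linked covariate (adjusted p = 0.130 and 0.0615). Of 15 alternative fits, 3 ended the call of Plekhm1, 4 that of Epg5, 7 that of Bloc1s1, 7 that of Tecpr1 and 8 that of Snap29. Without PBS replicate 2 or WGP replicate 3 only 1 fusion gene rose and 1 fell, and 3 rose when PBS replicate 1 or either of WGP replicates 1 and 2 was left out. Of 13 other early genes Stk38, a kinase that binds Beclin 1, rose (0.34 ± 0.08, adjusted p = 0.0068) and Tmem41b, a lipid scramblase of the endoplasmic reticulum, fell (-0.56 ± 0.16, adjusted p = 0.021). Each was 7.69% of this list, where 15.2% of all tested genes rose and 15.7% fell. Tmem41b did not pass when PBS replicate 1 or 2 or WGP replicate 1 was left out (adjusted p between 0.059 and 0.077).

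In LC3-associated phagocytosis, genes of the phagocyte oxidase were higher after WGP. Of 12 tested genes of this list 7 rose (58.3%, against 15.2% of all tested genes) and 1 fell (8.33%, against 15.7%). The other 4 did not pass, and the median log2 fold change was 0.33. With library sizes alone 6 rose and 1 fell. The list was chosen with earlier results of these data known, so its shares are no test. Cybb, the catalytic subunit of the phagocyte oxidase, had 2678, 2704 and 2769 CPM in WGP libraries, against 1612, 1707 and 1871 CPM in PBS libraries (log2 fold change 0.65 ± 0.07, adjusted p = 0.00014). Rac2, the GTPase that activates the oxidase (0.75 ± 0.08, adjusted p = 7.6e-05), the oxidase subunit gene Ncf4 (0.75 ± 0.08, adjusted p = 0.00013) and the complement receptor chain Itgam (0.66 ± 0.08, adjusted p = 0.00015) rose as well. Itgb2, also on this list, did not pass (-0.02 ± 0.07, adjusted p = 0.87). Rubcn, which encodes Rubicon, the factor that separates this route from autophagy proper, averaged 52.2 ± 5.91 CPM in WGP libraries and 48.3 ± 4.64 CPM in PBS libraries and did not pass (adjusted p = 0.48). Tlr2, a receptor of microbial lipoproteins, fell (-0.52 ± 0.10, adjusted p = 0.0025). The summed level of 9 classical monocyte markers was higher in the same WGP libraries (given above), and its part in these differences was not tested.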

How the data were processed

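Read counts per gene were made and deposited by the authors; per the submitters' processing notes HTSeq 0.10.0, FastQC 0.10.1 and the builds mm10 and GRCm38 were used. Which aligner, gene annotation and strand setting were used is not given in the sources used here. Per the labels' protocols, interstitial macrophages were stained with antibodies in digested lung, and polyA-selected libraries were made from their RNA. GENCODE M21 (GRCm38) matched 21939 of 21965 identifiers.

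The comparison used edgeR 4.0.16 (R 4.3.3): genes were filtered with filterByExpr, scaled by TMM and fitted with glmQLFit (robust), and the two-sided quasi-likelihood test of WGP over PBS was adjusted by Benjamini-Hochberg across 12305 genes at a threshold of 0.05. An SE is the size of the log2 fold change over the root of its F value. TMM scaling also applies to CPM. Totals ran from 18254678 to 20346517 counts, which limits precision for low genes; counting floors cover counting error only. The fit was tested on simulated counts. Replicate libraries differed by a chi-square of 15.5 to 29.7 per degree of freedom, so none repeated another.

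Promoter sequences are RefSeq's (GRCm38.p6; 33 of 40 members matched by symbol). Vamp7 and Clec7a were not analysed here, and some genes of the wider pathway are not reported here. Members and lists were chosen with earlier results of these data known, and Itgb2 was named after its values were seen. All 40 members are reported, with values per library for those that passed, the 5 ATG8 genes and Sqstm1, and up to 4 genes by smallest p from each related list besides Tfeb, Mtor and Rubcn; Ddit3, Tlr2, Retreg2, Retreg3, Depdc5, Rragc, Rragd, Snap29, Bloc1s1 and Tecpr1 were named after their values were seen, and so were Ulk1, Atg14, Bnip3 and Atg3 with library values or order. Alternatives were other scalings, filters, DESeq2 1.42.0, limma-voom (limma 3.58.1), no robust estimation, the replicate number as a block, a Y-linked covariate and leaving out each library.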

Additional observations from a re-analysis of the deposited data

How the results depend on the processing

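Of the 11 called members, 7 kept their call and direction under all 15 alternatives, and Atg4c, Map1lc3a, Calcoco1 and Atg9a lost theirs as given above. Of the 29 others, Ulk1, Atg101 and Atg14 passed under some alternative. The cause of these changes was not tested, and at this depth and number of libraries small changes can be missed.

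Leaving out 1 library gave 2491 (without PBS replicate 1) to 3717 changed genes in place of 3809, with 1202 to 1753 higher and 1289 to 1964 lower. The members that rose numbered 3 to 5 and those that fell 5 to 7, and the class medians ran from 0.05 to 0.12 for initiation, -0.09 to -0.03 for conjugation and -0.24 to -0.18 for cargo receptors. With library sizes alone 1236 genes were higher and these medians were -0.014, -0.16 and -0.31. With the Y-linked covariate 2 members rose.

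The sign turned for 16 members, none of them called. With library sizes alone the log2 fold change was -0.0032 for Atg13, -0.024 for Becn1, -0.087 for Uvrag, -0.093 for Atg2a, -0.027 for Nbr1 and -0.079 for Tax1bp1. With the Y-linked covariate it was 0.036 for Pik3c3, 0.015 for Pik3r4, -0.026 for Uvrag, -0.063 for Atg2a, 0.033 for Atg4b and -0.033 for Tax1bp1. Leaving out 1 library gave -0.12 to 0.042 for Rb1cc1, -0.083 to 0.056 for Pik3c3, -0.065 to 0.081 for Pik3r4, -0.031 to 0.068 for Uvrag, -0.016 to 0.24 for Wipi1 and -0.042 to 0.065 for Atg2a. It gave -0.080 to 0.23 for Atg4a, -0.10 to 0.024 for Atg5, -0.0045 to 0.26 for Atg10, -0.090 to 0.068 for Atg12, -0.019 to 0.043 for Tax1bp1 and -0.051 to 0.52 for Bnip3.

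Same-numbered WGP and PBS libraries did not deviate together (r = -0.08, -0.121 and -0.0874), so the numbers were not taken to pair them. With the replicate number as a block 1584 genes were higher and 1601 lower, 3 members rose and 7 fell.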
